A study of Homo sapiens with 6 samples.

Results

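The genes described here are 10 members of the cathepsin family, CTSA, CTSB, CTSC, CTSD, CTSF, CTSH, CTSK, CTSL, CTSS and CTSZ, taken by symbol from the 19330 genes listed in a Ribo-Seq count table. The cells were K562, a line established from human chronic myelogenous leukemia. The list was chosen with the fold changes of the sgN6AMT1 over sgCtrl contrast already known. The levels and fold changes of the members in that contrast are therefore a description, given with no p-value. The lists of related genes were also chosen with earlier results of these data known. Adjusted p-values printed for their genes come from the fit over all genes, and they too are a description and no independent support. Ribosome profiling (Ribo-Seq) counts the mRNA fragments that ribosomes protect from nuclease, so a count on a coding sequence (CDS) reflects both how much mRNA was present and how many ribosomes it carried. RNA sequencing was not used here, so these contributions cannot be told apart.

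Both groups carried the pLentiCRISPRv2 vector and differed in its guide. In the 3 sgN6AMT1 libraries the guide targeted N6AMT1, a methyltransferase whose substrates include eRF1, the protein that recognises stop codons in the ribosome. In the 3 sgCtrl libraries the guides were controls, named in the labels as OR11A1 and OR2M49, and which control guide each library carried is not stated. Cells of both groups were selected in puromycin for 48 h and analysed 10 days after infection, and no picking of clones is described. The methods describe the replicates as separate lentiviral transductions.

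Cathepsins are proteases that work mainly in the acidic interior of lysosomes and endosomes. Most are made as inactive precursors, tagged with mannose 6-phosphate in the Golgi, carried to the lysosome by receptors that bind the tag, and activated by removal of a propeptide. The family name covers unrelated enzyme types: CTSD is an aspartic protease, CTSA a serine carboxypeptidase, and the other members named above are papain-like cysteine proteases. Together they degrade proteins delivered by autophagy and endocytosis, and single members have narrower tasks such as collagen breakdown, antigen processing or the activation of other enzymes.

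The catalytic cysteine separates the papain-like members from CTSA and CTSD at the level of sequence. The CDS stretches of 30 bases around it are shown in the 5′ to 3′ direction, with the cysteine codon in capitals, for the members whose levels are compared below and for the near copy CTSV, which matters for how reads can be assigned.
CTSC: gcatcctgtggcagcTGCtactcatttgct
CTSF: ggcatgtgtggctccTGCtgggccttctca
CTSH: ggtgcctgcggcagtTGCtggactttctcc
CTSK: ggtcagtgtggttccTGTtgggcttttagc
CTSL: ggtcagtgtggttctTGTtgggcttttagt
CTSS: ggttcttgtggtgctTGCtgggctttcagt
CTSZ: caatactgcggctccTGCtgggcccacgcc
CTSV: aaacagtgtggttctTGTtgggcttttagt
The cysteine is codon 258 in CTSC, 295 in CTSF, 141 in CTSH, 139 in CTSK, 138 in CTSL, 139 in CTSS, 92 in CTSZ and 89 in the CTSV transcript of the table. CTSB carries the same signature at codon 108. No match to the signature was found in CTSA or CTSD. CTSO and CTSW, no members here but counted below among the cysteine cathepsin genes, had no match either. Lack of a match to this signature alone thus does not tell the enzyme types apart. CTSK, CTSL and CTSV use the codon TGT and the other genes shown use TGC.

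Whether footprints of one family member could be counted on another depends on how much sequence they share at footprint length. CTSL and CTSV were 83.9% identical over the aligned bases of their CDS, and the next closest of the 55 pairs of cysteine cathepsin genes, CTSS and CTSV, were 66.6% identical. CTSL shared 36 of its 977 windows of 26 bases with CTSV, so a small part of the CTSL counts could belong to CTSV. CTSV had far fewer counts than CTSL, so a large part of the CTSV counts could belong to CTSL. How large that part was could not be told. CTSA shared 6 of 1472 windows, a repeat found in several unrelated transcripts. The other 8 members shared no window of that length with another transcript of the table.

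The libraries held between 1821356 and 2969736 footprint counts. N6AMT1 itself, the targeted gene, was covered by 25, 24 and 34 footprints in the control libraries and by 10, 9 and 8 in the depleted ones. Its level fell by 1.51 on the log2 scale (SE 0.31), with an edgeR quasi-likelihood adjusted p of 6.69e-05. All 9 erythroid markers chosen for K562 cells were detected and tested. Their summed level was 25431 to 26898 CPM in sgCtrl and 26331 to 27181 CPM in sgN6AMT1. Most of it was HBG1 (means of 9553 and 9483 CPM) and HBG2 (9920 and 9851 CPM). The sum therefore does not show the changes of the lower markers, which are given below. CPM are footprint counts divided by the library total, after adjustment of that total with trimmed-mean (TMM) factors, and brought to a common scale.

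Footprints on the cathepsins made up 0.117% of all counts in sgCtrl and 0.208% in sgN6AMT1. The 10 genes summed to 1158, 1184 and 1259 CPM in the sgCtrl libraries and to 2082, 2054 and 2012 CPM in the sgN6AMT1 libraries. Every N6AMT1-depleted library was thus above every control library, and the group means of 1200 ± 52.4 and 2049 ± 35.3 CPM (SD, n = 3) differed by a ratio of 1.71. The ratio was also 1.71 when CTSC, the most abundant member, was left out of the sum. In bulk libraries, more cells with footprints on a gene and more footprints per cell cannot be told apart.

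Of the 10 members, 8 had enough counts to be tested, 1 was listed at 0 in every library and 1 fell below the filter on low counts. The fit gave 7 of the 8 as higher in sgN6AMT1 at an adjusted p under 0.05 (edgeR, adjusted over all 9202 genes tested), 0 as lower, and CTSZ as neither. Over all genes tested 26.9% passed that threshold, 12.9% as higher and 13.9% as lower, and since the members were chosen on this contrast nothing is read from their count. When libraries were scaled by their totals alone, 1560 genes were called higher and 976 lower over all genes, against 1191 and 1282 with TMM factors, and the same number of cathepsins, 7, was called higher. The 3 sgN6AMT1 libraries lay above the 3 sgCtrl libraries for 7 of the 8 tested members and for 18.4% of all genes tested. The median log2 fold change was 0.84 over the 8 tested members and 0.0063 over all genes tested.

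**Figure D1:**
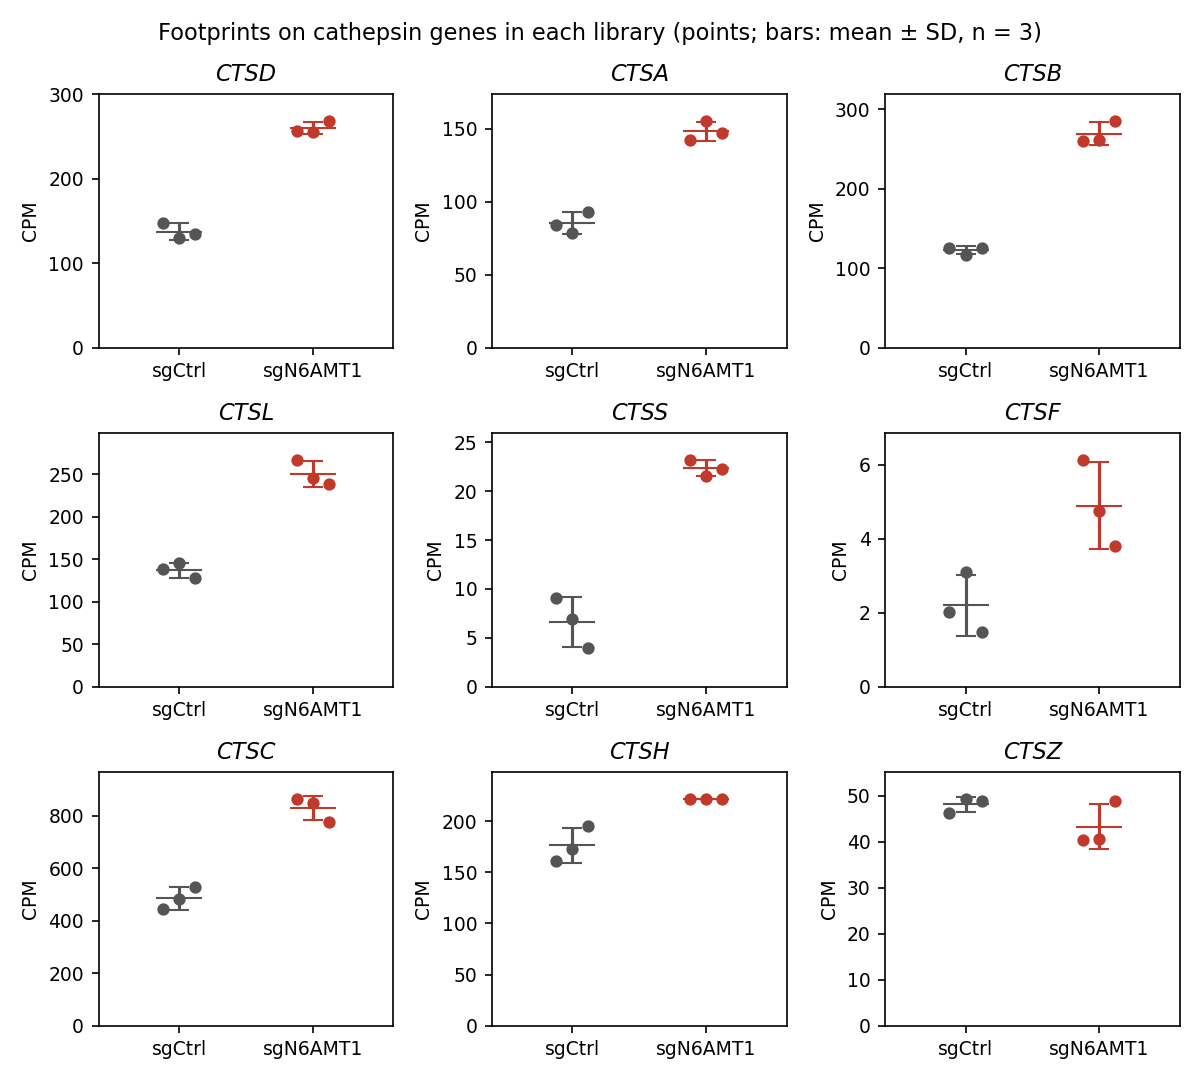
Footprint level (CPM, linear axis from 0) of 9 cathepsin genes, a panel each, in the 3 sgCtrl and 3 sgN6AMT1 libraries; points are libraries and bars are the mean ± SD. The groups are apart for CTSA, CTSB, CTSC, CTSD, CTSF, CTSH, CTSL and CTSS, and overlap for CTSZ; CTSK, at 0 in every library, is not drawn.

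CTSD, the main aspartic protease of the lysosome, had 148, 129 and 135 CPM in sgCtrl and 256, 255 and 269 CPM in sgN6AMT1. The lowest depleted library was well above the highest control library. The means were 137 ± 9.75 and 260 ± 7.55 CPM (SD, n = 3), a log2 fold change of 0.93 (SE 0.071), or 1.90-fold. The SE of a log2 fold change is derived here from the F statistic of the edgeR fit.

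CTSA, the serine carboxypeptidase also known as protective protein because it stabilises the glycosidases it binds, had 84.4, 78.3 and 93.2 CPM in sgCtrl and 142, 156 and 147 CPM in sgN6AMT1. The groups did not overlap. The log2 fold change was 0.81 (SE 0.089), from 85.3 ± 7.50 to 148 ± 6.63 CPM (SD, n = 3). Its partners in the complex are GLB1, the lysosomal beta-galactosidase, and NEU1, a sialidase, and both rose. GLB1 changed from 114 ± 14.4 to 152 ± 9.86 CPM (log2 fold change 0.43, SE 0.085, edgeR adjusted p = 3.43e-05). NEU1 changed from 139 ± 5.74 to 208 ± 7.51 CPM (log2 fold change 0.58, SE 0.074, edgeR adjusted p = 3.44e-10). For each of these partners all 3 depleted libraries were above all 3 controls.

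CTSB, CTSL and CTSS cut within proteins, and CTSB also removes dipeptides from their C-terminal end. CTSB had 125, 117 and 126 CPM in sgCtrl and 260, 262 and 286 CPM in sgN6AMT1. Its log2 fold change of 1.14 (SE 0.072), from 123 ± 4.73 to 269 ± 14.1 CPM (SD, n = 3), was the highest of the members with more than 100 counts in every library. Among all tested genes, 162 (1.76%) had a higher log2 fold change.

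CTSL had 139, 145 and 128 CPM in sgCtrl and 267, 245 and 239 CPM in sgN6AMT1, again without overlap. The means of 137 ± 8.82 and 251 ± 14.9 CPM (SD, n = 3) gave a log2 fold change of 0.86 (SE 0.072). CTSV, the gene with which it shares sequence, held 8, 5 and 3 footprints in the controls against 15, 19 and 6 after depletion. Those counts overlap between the groups and stand beside 259 to 610 counts of CTSL per library.

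CTSS, which remains active near neutral pH and trims the invariant chain of MHC class II molecules in antigen-presenting cells, had the lowest level of the tested members. Its counts were 18, 20 and 8 in sgCtrl but 53, 50 and 41 in sgN6AMT1. In CPM these were 9.04, 6.90 and 3.94 against 23.2, 21.6 and 22.3, so the depleted libraries were close to each other and the controls spread more widely. The log2 fold change of 1.74 (SE 0.24), or 3.35-fold, was the highest among the tested cathepsins, and 50 genes (0.543%) of all tested had a higher one. CTSS reached 10 counts in 2 of the 3 control libraries and in all depleted libraries, so it passed the filter through the group where it was high.

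Most of the measured partners of CTSS in antigen presentation had few or no counts. Of 9 genes chosen for the MHC class II route 7 were listed, and the invariant chain is not among those 7. Of the 7, 5 had 0 counts in all libraries, among them CIITA, the factor that switches on the class II genes, and HLA-DRA. HLA-DPB1 had 0 or 1 count per library. HLA-DRA, HLA-DRB1 and HLA-DPB1 were matched to the annotation by symbol and not by identifier, so their counts may depend on the transcript listed. The only one of the 7 with enough counts was IFI30, a lysosomal thiol reductase that opens disulfide bonds in antigens. It had 56.2 ± 4.37 CPM in sgCtrl and 56.8 ± 5.94 CPM in sgN6AMT1 (log2 fold change 0.018, SE 0.12, edgeR adjusted p = 0.935, SD over n = 3).

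CTSC, CTSH and CTSZ trim proteins from their ends: CTSC removes dipeptides and CTSH single residues from the N-terminus, and CTSZ single residues from the C-terminus. CTSC had 444, 481 and 529 CPM in sgCtrl and 864, 847 and 775 CPM in sgN6AMT1. Its log2 fold change was 0.78 (SE 0.054), from 485 ± 42.6 to 829 ± 47.3 CPM (SD, n = 3). In white blood cells CTSC activates the serine proteases of granules. Of 8 such substrates 5 had 0 counts in every library, and PRTN3, AZU1 and GZMB had between 0 and 2 counts per library. PRTN3, AZU1 and ELANE, which was at 0, were matched to the annotation by symbol and not by identifier. Their counts may depend on the transcript listed.

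CTSH had 161, 173 and 195 CPM in sgCtrl and 222, 222 and 221 CPM in sgN6AMT1. The groups did not overlap, but the log2 fold change of 0.33 (SE 0.071) was well below those of CTSB, CTSC, CTSD and CTSL. Among all tested genes, 1556 (16.9%) had a higher log2 fold change. The coefficient of variation of CTSH over the depleted libraries was 0.0675%, against 4.59% for counting error alone at its depth, so the SD of these 3 values is below what counting alone would give.

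CTSZ stood apart from the other tested members. It had 46.2, 49.3 and 48.8 CPM in sgCtrl and 40.3, 40.6 and 48.9 CPM in sgN6AMT1, with one depleted library inside the control range and the others below it. Its log2 fold change was -0.17 (SE 0.12), and 71.9% of all tested genes had a higher one. In counts, 92, 143 and 99 footprints in sgCtrl stood beside 92, 94 and 90 in sgN6AMT1.

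**Figure D2:**
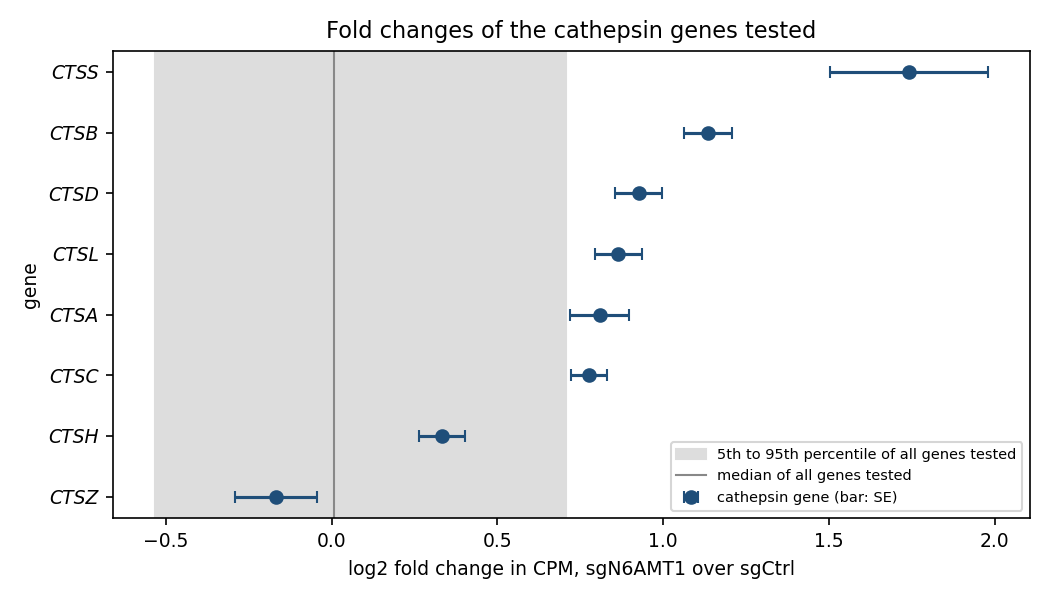
Log2 fold change of sgN6AMT1 over sgCtrl for the 8 tested cathepsins (points, bars are ± 1 SE of the edgeR fit), with the median of all genes tested and their 5th to 95th percentile for reference. CTSS is highest at 1.74, CTSH is at 0.33 and CTSZ alone is below 0 at -0.17.

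The remaining members were too low to test. CTSF, a cysteine protease with an unusually long propeptide, was covered by 4, 9 and 3 footprints in sgCtrl, against 14, 11 and 7 in sgN6AMT1. In CPM these were 2.01, 3.10 and 1.48 against 6.14, 4.75 and 3.80, which do not overlap, and the fit without a filter gave a log2 fold change of 1.08 (SE 0.46). CTSK, the collagen-cutting protease of osteoclasts, had 0 counts in all 6 libraries, and a count of 0 allows up to 1.01 to 1.65 CPM per library (3 counts, scaled to the library total, counting error only).

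Divided by CDS length, the levels can be compared between genes. In sgCtrl the order of mean CPM per kilobase of CDS was CTSC at 348, CTSH at 175, CTSL at 137, CTSB at 120, CTSD at 111, CTSA at 57.0, CTSZ at 52.7, CTSS at 6.65, CTSF at 1.51 and CTSK at 0. The ranges of CTSB and CTSD overlapped, as did those of CTSA and CTSZ, and the other neighbours in the order were apart. In sgN6AMT1 it ran CTSC at 595, CTSB at 264, CTSL at 250.04, CTSH at 219.9, CTSD at 209.9, CTSA at 99.1, CTSZ at 47.4, CTSS at 22.5, CTSF at 3.37 and CTSK at 0. There only CTSB and CTSL overlapped. CTSC was at the top in both groups, and CTSH moved from the second place to the fourth.

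**Figure D3:**
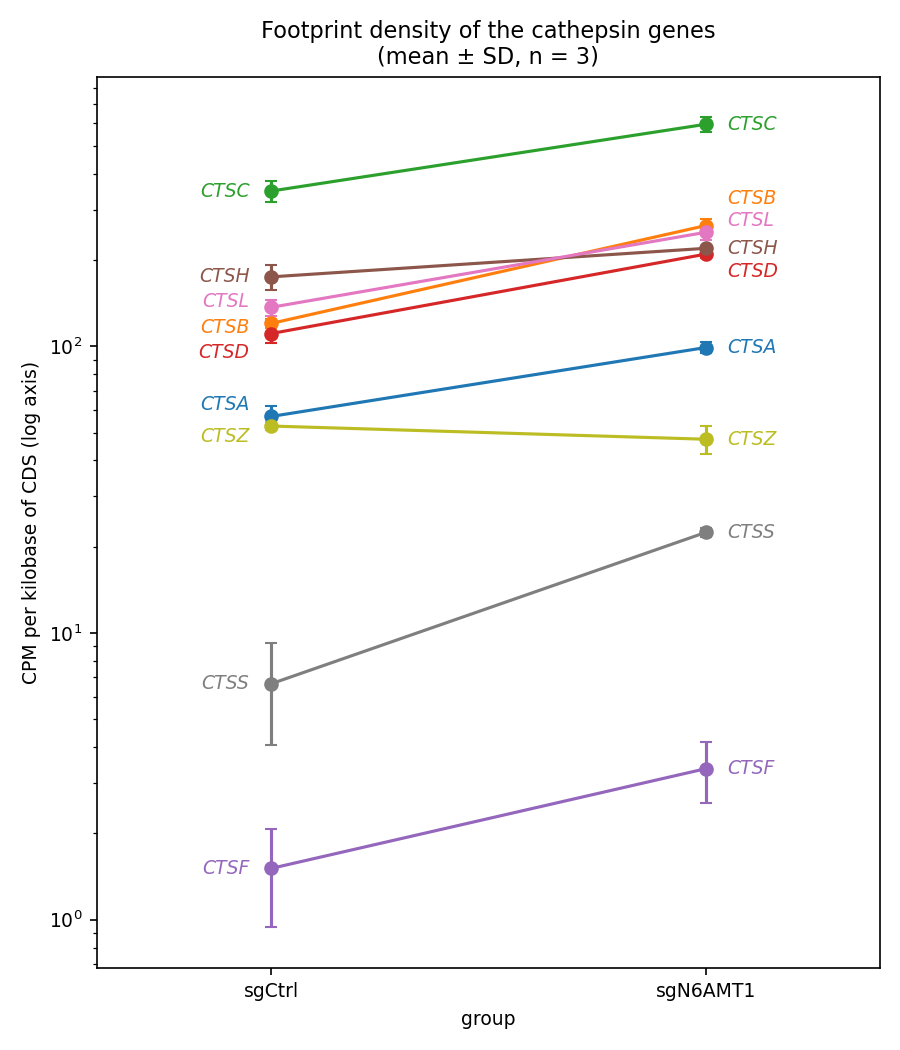
Footprint density (CPM per kilobase of CDS, log axis) of 9 cathepsins in sgCtrl and sgN6AMT1; points are means, bars are SD over 3 libraries, and lines join the same gene. CTSK, at 0, has no place on a log axis. The line of CTSZ slopes down and that of CTSH crosses those of CTSB and CTSL.

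The make-up of the cathepsin pool shifted accordingly. CTSC took 40.3% of the summed cathepsin CPM in sgCtrl and 40.4% in sgN6AMT1. CTSB went from 10.2% ± 0.495 to 13.1% ± 0.913 (SD, n = 3). CTSH went from 14.7% ± 0.795 to 10.8% ± 0.180, and CTSZ from 4.01% ± 0.146 to 2.11% ± 0.273. The ranges of the groups were apart for CTSB, CTSH, CTSZ and CTSS, the last with 0.559% ± 0.235 and 1.09% ± 0.035. Expressed as a ratio of levels, CTSH to CTSB was 1.29, 1.48 and 1.55 in the control libraries and 0.852, 0.847 and 0.776 in the depleted ones. CTSZ to CTSB was 0.369, 0.421 and 0.388 against 0.155, 0.155 and 0.171. These shares are parts of a whole, so a rise of one member lowers the share of another without any change in its own level.

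**Figure D4:**
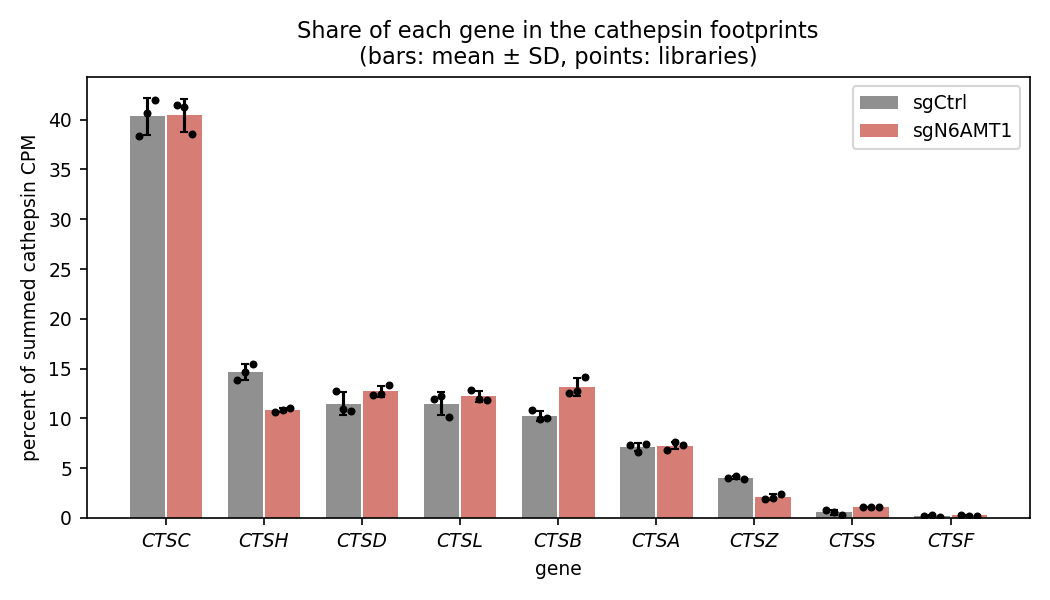
Share of the summed cathepsin CPM (percent, axis from 0) taken by 9 members in sgCtrl and sgN6AMT1; bars are means, error bars SD over 3 libraries, and points the libraries. CTSC holds about the same share in both groups, while those of CTSH and CTSZ are smaller and that of CTSB is larger in every sgN6AMT1 library.

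Because N6AMT1 modifies eRF1, the last codons of the members are shown as the sequence that eRF1 meets. Each line is the final 30 bases of the CDS, with the stop codon in capitals.
CTSA: tcccgcttcctgaacaagcagccatacTGA
CTSC: gtggcagccacaccaattcctaaattgTAG
CTSD: gtgggcttcgccgaggctgcccgcctcTAG
CTSH: tgcgcctcctaccccatccctctggtgTGA
CTSL: gcctcagcagccagctaccccactgtgTGA
CTSS: gctagctttccctcttacccagaaatcTAG
CTSZ: cactgtacatttggggaccccatcgttTAA
CTSB also ends in TAA, and the low CTSF and CTSK in TGA. The 3 stop codons are thus all found among the members. Any relation between stop codon and fold change was not tested. Among 17483 complete CDS of the table TAA ended 28.6%, TAG 22.2% and TGA 49.2%. Over all genes tested, the median log2 fold change was -0.0052 for 2554 genes ending in TAA, 0.028 for 1818 ending in TAG and 0.0086 for 4217 ending in TGA.

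Many lysosomal genes carry E-boxes bound by TFEB, TFE3 and MITF, so promoters were searched for CACGTG and its extended form TCACGTGA, which contains it, and for TTCNNNGAA, the motif of STAT factors. All of these read the same on both strands. RefSeq promoter sequences on GRCh38.p14, from 250 bases before to 50 after the start, were given for 7 of the 10 members, and CTSB, CTSK and CTSS had no entry. CACGTG was found in CTSA, CTSD and CTSF, shown in 30-base windows in the direction of the gene with the motif in capitals.
CTSA, chr20:45891281-45891310, plus strand: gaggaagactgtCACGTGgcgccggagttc
CTSA, chr20:45891298-45891327, plus strand: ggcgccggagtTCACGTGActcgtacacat
CTSD, chr11:1763957-1763986, minus strand: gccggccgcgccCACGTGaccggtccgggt
CTSF, chr11:66568712-66568741, minus strand: acatataacaagCACGTGatagaggtcagt
CTSF, chr11:66568640-66568669, minus strand: ccctgcgcgcccCACGTGcctcctgtaaac
The motifs begin 42 and 26 bases before the start in CTSA, 47 before it in CTSD, and 123 and 51 before it in CTSF. The RefSeq start of CTSA is not that of the counted transcript. Both CTSA windows lie inside the span of that transcript, chr20:45890254-45898820, and not before it. CACGTG was held by 7.26% of 35116 promoters, TCACGTGA by 0.980% and TTCNNNGAA by 7.66%. CTSC, CTSH, CTSL and CTSZ held none of the 3 motifs in this window. A match is a stretch of letters and no measure of binding.

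The factors that bind these E-boxes had few footprints. TFE3 had 12.6, 10.7 and 15.8 CPM in sgCtrl and 23.2, 22.5 and 17.4 CPM in sgN6AMT1 (log2 fold change 0.73, SE 0.21, edgeR adjusted p = 0.00407). That call was lost in DESeq2 (adjusted p = 0.103) and without sgCtrl replicate 2 (adjusted p = 0.0610), the lowest adjusted p over the alternatives being 0.00194. MITF went from 15.0 ± 1.45 to 19.5 ± 2.93 CPM and did not pass (log2 fold change 0.40, edgeR adjusted p = 0.134). TFEB had 1 to 10 counts per library and was not tested, and TFEC was at 0.

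The delivery route of cathepsins was covered by 17 genes for mannose 6-phosphate tagging, receptors, adaptors, export from the endoplasmic reticulum and activation. Of the 14 tested, 4 were called higher and 0 lower, beside 12.9% and 13.9% of all genes tested. The median log2 fold change was 0.086 beside 0.0063 over all genes, but it had no settled sign: it was -0.031 without sgCtrl replicate 2, 0.15 without sgCtrl replicate 1, 0.058, 0.040 and 0.043 without sgN6AMT1 replicates 1, 2 and 3, and 0.17 with a mean of at least 50 counts. PSAP, the precursor of the saposins that help degrade sphingolipids, rose from 966 ± 5.64 to 1716 ± 7.11 CPM (log2 fold change 0.83, SE 0.045, edgeR adjusted p = 2.51e-29). SORT1, the sorting receptor sortilin, rose from 229 ± 9.11 to 308 ± 10.1 CPM (log2 fold change 0.42, SE 0.063, edgeR adjusted p = 4.28e-08). Calls were less firm for the other members of the list that passed. GNPTAB, the phosphotransferase that builds the tag, changed by 0.42 in log2 units (SE 0.15, edgeR adjusted p = 0.0216, 0.00868 to 0.238 over the alternatives), and its call was lost in DESeq2 and without sgCtrl replicate 1 (adjusted p = 0.101), sgCtrl replicate 2 (0.0892) or sgN6AMT1 replicate 2 (0.196). MCFD2, a cargo receptor subunit, changed by 0.27 (SE 0.084, edgeR adjusted p = 0.00931, 0.00155 to 0.187 over the alternatives), lost in DESeq2 and without sgCtrl replicate 2 (adjusted p = 0.187) or sgN6AMT1 replicate 1 (0.108).

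The tag on cathepsins is bound by the mannose 6-phosphate receptors, neither of which passed the test. IGF2R, the large receptor, had 344 ± 30.5 CPM in sgCtrl and 381 ± 9.49 CPM in sgN6AMT1 (log2 fold change 0.15, SE 0.060, edgeR adjusted p = 0.0510), and it passed in 4 of the alternatives, among them without sgCtrl replicate 1 (adjusted p = 0.00722). M6PR, the small receptor, had 87.5 ± 7.36 and 89.2 ± 5.99 CPM (log2 fold change 0.030, SE 0.100, edgeR adjusted p = 0.864). The adaptors GGA1, GGA2 and GGA3, the export factors LMAN1, CLN6 and CLN8, and NAGPA did not pass the test. LGMN, the protease that processes several cathepsins to their mature chains, had 0 to 2 counts per library.

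Few inhibitors of cathepsins were measured. Of 15 genes for cystatins, kininogen and serpins, 9 were at 0 and 4 were tested, of which 2 were called higher and 1 lower, beside 12.9% and 13.9% of all genes tested. Their median log2 fold change was 0.14, against 0.34 in DESeq2 or without a filter and 0.090 without sgCtrl replicate 1. CST3, the secreted cystatin C, had 57.3, 61.0 and 66.1 CPM in sgCtrl and 80.2, 77.8 and 96.1 CPM in sgN6AMT1 (log2 fold change 0.45, SE 0.11, edgeR adjusted p = 0.000673). CSTB, the cytosolic cystatin B, had 105 ± 10.8 and 108 ± 6.97 CPM (log2 fold change 0.036, SE 0.092, edgeR adjusted p = 0.817). SERPINB1 changed by 0.25 in log2 units (SE 0.085, edgeR adjusted p = 0.0202, 0.00383 to 0.162 over the alternatives), and the call was lost in DESeq2 and without sgCtrl replicate 1 (adjusted p = 0.0768), sgN6AMT1 replicate 1 (0.0730) or sgN6AMT1 replicate 2 (0.101). SERPINB6 changed by -0.21 on that scale (SE 0.073, edgeR adjusted p = 0.0198, 0.0189 to 0.105 over the alternatives), lost in DESeq2, with total counts, and without sgCtrl replicate 1 (adjusted p = 0.0566), sgCtrl replicate 3 (0.0533) or sgN6AMT1 replicate 3 (0.0820). CSTA counts were 0, 0 and 1 in sgCtrl but 4 in each sgN6AMT1 library, below the filter, and the fit without a filter called it higher (log2 fold change 3.25, SE 1.11, edgeR adjusted p = 0.0230), while DESeq2 gave no adjusted p.

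Of 7 other lysosomal peptidases, 5 were tested, 2 were called higher and 0 lower, beside 12.9% and 13.9% of all genes tested. Their median log2 fold change was 0.28, and 0.17 without sgN6AMT1 replicate 1. TPP1, a tripeptidyl peptidase of the lysosome, rose from 132 ± 9.10 to 184 ± 6.08 CPM (log2 fold change 0.48, SE 0.077, edgeR adjusted p = 3.40e-07). CPQ, a carboxypeptidase, rose from 21.6 ± 3.53 to 36.9 ± 3.47 CPM (log2 fold change 0.76, SE 0.16, edgeR adjusted p = 6.54e-05). PRCP gave 0.28 in log2 units (SE 0.11, edgeR adjusted p = 0.0614) and passed with total counts, with a mean of at least 50 counts, and without sgN6AMT1 replicate 2 (adjusted p = 0.0104). DPP7 and SCPEP1 had log2 fold changes of 0.017 and 0.11 and did not pass.

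Among 5 further genes with a cathepsin name, CTSG, CTSO and CTSW were at 0 in every library. CTSE, an aspartic protease of endosomes related to CTSD, was covered by 4, 5 and 4 footprints in sgCtrl, against 15, 13 and 13 in sgN6AMT1. It was called higher (log2 fold change 1.73, SE 0.42, edgeR adjusted p = 0.000843), with 10 or more counts only in the depleted libraries, so it passed the filter through the group where it was high. CTSV fell below the filter. Without a filter it changed by 1.39 in log2 units (SE 0.43, edgeR adjusted p = 0.00948), and in DESeq2 by 1.36 (adjusted p = 0.158). Footprints of CTSL from the shared sequence may be among the CTSV counts, so this change may not be that of CTSV itself.

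**Figure D5:**
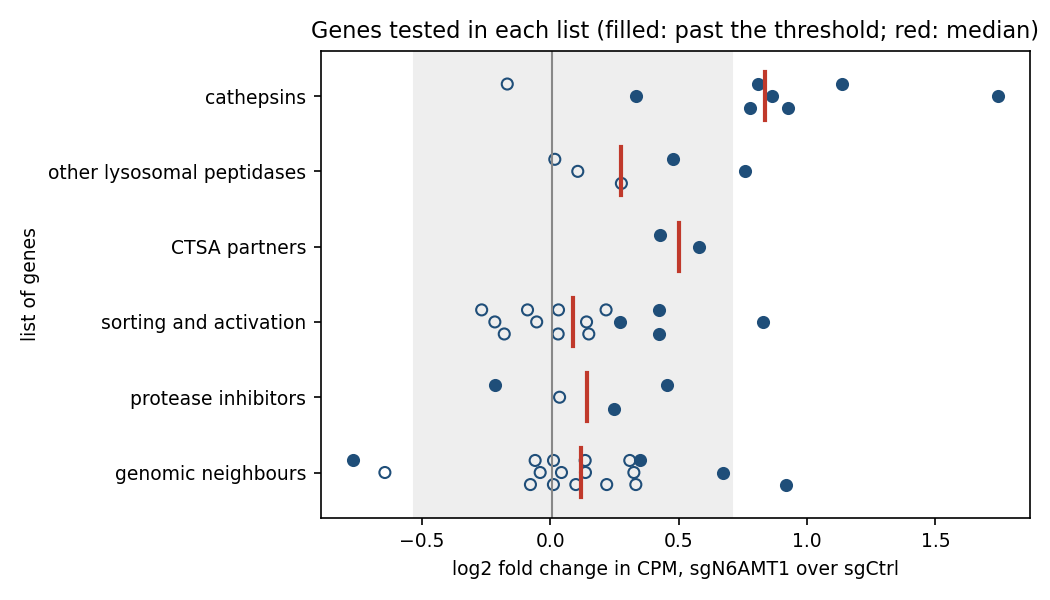
Log2 fold change of sgN6AMT1 over sgCtrl for the tested genes of 6 lists (points, filled where the adjusted p is under 0.05) with the list median (red bar), beside the median (grey line) and the 5th to 95th percentile (grey band) of all genes tested. The cathepsins have a median of 0.84.

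Macrophages are rich in cathepsins, so their markers were measured beside them. Of 9 macrophage markers CD14, MRC1, CD163 and MARCO were at 0 in every library. CD14 was matched to the annotation by symbol only, so its count may depend on the transcript listed. The summed level of the list was 59.7 to 71.0 CPM in sgCtrl and 149 to 155 CPM in sgN6AMT1, carried by LYZ (log2 fold change 0.90, SE 0.11, edgeR adjusted p = 2.46e-11) and CD68 (2.25, SE 0.19, edgeR adjusted p = 4.30e-18). CD68 is itself a lysosomal membrane protein and LYZ codes for lysozyme. ITGAM, an integrin of myeloid cells, was covered by 2, 1 and 0 footprints in sgCtrl, against 17, 9 and 15 in sgN6AMT1. Of 6 megakaryocyte markers 1 was at 0 and 3 were tested. ITGA2B (log2 fold change -1.79) and GP1BB (-1.02) were called lower (edgeR adjusted p = 4.27e-06 and 3.01e-15), and ITGB3 was not called (-0.076, edgeR adjusted p = 0.908). The summed level of this list, most of it GP1BB, was 153 to 167 CPM in sgCtrl and 66.6 to 93.4 CPM in sgN6AMT1. Of the 9 erythroid markers 3 were called higher and 3 lower. Higher were ALAS2 (log2 fold change 1.68), HBE1 (0.48) and TAL1 (0.48), and lower were KLF1 (-0.37), GATA1 (-0.29) and HBZ (-0.27). Beside the calls in each of these marker lists, 12.9% of all genes tested were called higher and 13.9% lower. The part of these shifts in the cathepsin levels was not tested.

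The members lie on 6 chromosomes. In GENCODE release 44 on GRCh38, CTSA spans chr20:45890254-45898820 on the plus strand with 15 exons and CTSZ chr20:58995185-59007254 on the minus strand with 6. CTSC (chr11:88293592-88337736), CTSD (chr11:1752755-1763927) and CTSF (chr11:66563464-66568606) lie on the minus strand of chromosome 11. CTSH lies at chr15:78921058-78945046, CTSL at chr9:87726122-87731391 and CTSB at chr8:11844332-11868051. CTSK (chr1:150796208-150808260) and CTSS (chr1:150730188-150765778) are close neighbours on the minus strand of chromosome 1, and CTSK was at 0 while CTSS was measured in all libraries.

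The nearest tested gene on either side of each member gave 18 distinct neighbours, of which 3 were called higher and 1 lower, beside 12.9% and 13.9% of all genes tested. Their median log2 fold change of 0.12 was 0.054 without sgCtrl replicate 3 and 0.066 or 0.077 without sgN6AMT1 replicate 2 or 3. Not all of them lay close. The gaps ran from 0 between PLTP and CTSA to 1215 kb between DLC1 and CTSB and 1863 kb between CHORDC1 and CTSC. DAPK1, a death-associated kinase 17.5 kb from CTSL, rose from 18.9 ± 0.909 to 35.1 ± 7.84 CPM (log2 fold change 0.92, SE 0.17, edgeR adjusted p = 5.15e-06). PLTP, a phospholipid transfer protein whose gene overlaps the end of CTSA on the opposite strand, changed by 0.67 in log2 units (SE 0.18, edgeR adjusted p = 0.00261), which did not pass in DESeq2 (adjusted p = 0.0668, the highest over the alternatives, the lowest being 0.00109). The overlap of PLTP and CTSA is a short stretch at the 3′ end of both, chr20:45898763-45898820. How strand was treated in counting is not stated, so footprints in that stretch alone cannot be assigned with certainty. Next to CTSZ, NELFCD was called higher (log2 fold change 0.35, SE 0.083, edgeR adjusted p = 0.000563) and TUBB1, a tubulin of platelets, was called lower (-0.77, SE 0.27, edgeR adjusted p = 0.0224, 0.0146 to 0.174 over the alternatives). The call of TUBB1 was lost in DESeq2 and without sgCtrl replicate 1 (adjusted p = 0.0885), sgCtrl replicate 3 (0.0591), sgN6AMT1 replicate 2 (0.0514) or sgN6AMT1 replicate 3 (0.100). GOLPH3L, a Golgi protein, is the nearest tested gene below CTSS and CTSK, and gave 0.31 in log2 units (SE 0.13, edgeR adjusted p = 0.0569). It passed with upper-quartile factors (adjusted p = 0.0489), total counts (0.0218), a mean of at least 50 counts (0.0366) and without sgCtrl replicate 2 (0.0185), with a highest adjusted p of 0.314 over the alternatives.

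The genes whose pattern was closest to the summed cathepsins were sought among 3655 genes with a mean of at least 50 CPM. Likeness was the root mean square difference of log2 CPM over the 6 libraries, after centring each gene. The closest was B2M, the light chain of MHC class I molecules, at 0.038, with 416, 409 and 433 CPM in sgCtrl and 761, 750.4 and 734 CPM in sgN6AMT1. PKM, a pyruvate kinase of glycolysis, followed at 0.039 and PSAP at 0.050. Their log2 fold changes were 0.84, 0.82 and 0.83. That these lie near those of the cathepsins follows from how the genes were sought.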

How the data were processed

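Ribo-Seq of K562 cells was deposited by the authors as 1 table of whole-number footprint counts per transcript, neither normalized nor pooled over replicates. Per the methods, reads were trimmed with cutadapt, mapped to GRCh38 with HISAT2, cleared of rRNA and tRNA, and mapped to 1 canonical transcript per gene with bowtie2, with P-sites from riboWaltz. Counts over a gene annotation were also made, and the sources used here do not say which kind was deposited. No molecular identifiers are described, so intervals and floors cover counting error only, and all count columns were used (0 left out).

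Counts were filtered with filterByExpr (minimum of 10), scaled with TMM factors and compared with the quasi-likelihood F test of edgeR 4.0.16 in R 4.3.3, 2-sided and without covariates, with Benjamini-Hochberg adjustment over 9202 genes. The genes removed held 0.465% of the counts. The fit was tested on simulated data. Alternatives used DESeq2 1.42.0 (the tool of the methods), limma 3.58.1 (voom), other factors and filters, a replicate block, and fits without each library. Transcripts were matched to GENCODE release 44 by identifier (91.5%). Identity was computed on CDS bases. The members and all gene lists were chosen with earlier results of these data known. Genes named are the members, tested genes of the lists, nearest tested neighbours, N6AMT1 and the 3 closest patterns; those too low to test, such as ITGAM and CSTA, were named after their values were seen. The value of 1 tested gene of the sorting and activation list is not reported here.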

Additional observations from a re-analysis of the deposited data

How the results depend on the processing

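Every log2 fold change of the 8 tested cathepsins kept its sign and its side of the threshold in all 111 values computed under 14 alternatives, with CTSB at 1.09 to 1.19, CTSH at 0.28 to 0.40, CTSS at 1.51 to 1.97 and CTSZ at -0.26 to -0.11. Cathepsins called higher were 7 in edgeR and DESeq2, and 6 with a mean of at least 50 counts, which removed CTSS. Without sgCtrl replicate 2 they were 8, the eighth being CTSF, which was not called in the 5 other alternatives that tested it. Over all genes, those called higher were 1191 of 9202 in edgeR and 588 of 13622 in DESeq2. They were 967 of 5874 with a mean of at least 50 counts and 945 of 9335 without sgCtrl replicate 2. Since the members were chosen on this contrast, nothing is read from their counts. The summed cathepsin ratio of 1.71 became 1.77 with total counts without factors, and 1.68 to 1.75 when a library was left out. Sorting and activation genes called higher went from 4 to 2 in DESeq2 and to 2 to 4 with a library left out, the lowest without sgCtrl replicate 2, and to 5 with upper-quartile factors, total counts or a mean of at least 50 counts. Protease inhibitors called higher went from 2 to 1 in DESeq2 (1 to 2 with a library left out) and to 3, with CSTA, without the filter, and those called lower from 1 to 0 in DESeq2 and with total counts (0 to 1 with a library left out). Neighbours called lower went from 1 to 0 in DESeq2 and with a mean of at least 50 counts, which did not include TUBB1 (0 to 1 with a library left out). The cause of the other changes was not tested. Over all genes, edgeR called 2473 and DESeq2 1329. Called higher were 1244 of 9202 with upper-quartile factors, 1560 of 9202 with total counts and 1196 of 13622 without the filter. Called lower were 1282 of 9202 in edgeR, 741 of 13622 in DESeq2, 976 of 9202 with total counts and 1006 of 5874 with a mean of at least 50 counts.

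No pairing of the samples by replicate number was seen. Deviations of same-numbered libraries from their group means correlated at -0.139, 0.035 and 0.0032 over 5874 genes, and those of differently numbered libraries at -0.141 to 0.139. With 3 libraries per group, such values cannot settle whether samples were handled in pairs. With the number as a replicate block, 2390 of 9202 genes were called in all, 1167 of them as higher. The cathepsins called higher were 7 as without it. Low counts limit CTSF, CTSK, CTSE and CTSV, and CTSS rests on 8 to 20 counts per control library.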
